A study of Mus musculus with 7 samples.

Results

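The genes described here build the route by which a cell shows peptides from its own proteins on MHC class I. They are the light chain gene B2m, the heavy chain genes H2-D1, H2-K1, H2-T23 and H2-M2, the peptide transporter genes Tap1 and Tap2, the peptide-loading gene Tapbp, the immunoproteasome gene Psmb8 and the regulator gene Nlrc5. They were chosen by name for their roles in this route, with earlier results of these data known, and are 10 of the 33710 genes listed in the 7 matrices. All 10 were listed in every matrix.

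The study asks what hexokinase 2 (HK2) does in the spread of breast cancer. Cells of dissociated tumors were profiled one by one with the droplet method Drop-seq, which counts captured mRNA molecules by unique molecular identifiers (UMIs). The 7 matrices come from 7 control mice carrying MMTV-PyMT, the polyoma virus middle T oncogene under a promoter active in mammary epithelium, and floxed HK2 alleles (HK2 f/f). The mice were C57BL/6, the labels give the genotype as wild type and the time as 3 months after a tumor could be felt, and the treatment text shared by the samples describes tamoxifen-induced, Cre-driven HK2 loss, with no Cre named for these mice. In the study's scheme the control mice received tamoxifen too. Sample titles name the libraries CB (4 mice) or WT (3 mice), a split that the labels do not explain. All 7 carry the genotype label wild type, and CB and WT below mean title series alone. Each library came from 1 tumor of 1 mouse, and neither tumors with HK2 loss nor normal mammary gland were analysed here. The non-tumor classes below are therefore cells inside these tumors, named by their markers, and their expression of the oncogene was not examined.

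In every nucleated cell, proteasomes cut proteins into peptides. In immune cells and under interferon, the immunoproteasome subunit encoded by Psmb8 takes the place of the constitutive subunit encoded by Psmb5. The Tap1 and Tap2 proteins carry peptides into the endoplasmic reticulum, where the Tapbp protein (tapasin) holds the heavy chain with B2m until a peptide fits. H2-K1 and H2-D1 encode the classical heavy chains seen by CD8 T cells, while H2-T23 encodes Qa-1, a nonclassical heavy chain that engages the CD94/NKG2 receptors of NK cells and some T cells. Nlrc5 is a transactivator of class I genes, and interferon gamma raises most genes of the route.

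In GRCm38 (GENCODE vM21), 8 of the 10 genes lie on chromosome 17, from Tapbp at chr17:33915899-33929292 through H2-K1 at chr17:33996017-34000347, Tap1 at chr17:34187553-34197225, Psmb8 at chr17:34197721-34201454, Tap2 at chr17:34203527-34216321, H2-D1 at chr17:35262730-35267499 and H2-T23 at chr17:36029773-36032855 to H2-M2 at chr17:37480851-37483552. B2m is at chr2:122147686-122153083 and Nlrc5 at chr8:94434356-94527272. The counts are of 3′ ends of transcripts, so it matters whether those ends are unique to a gene. Of all windows of 50 bases in the last 600 bases of its coding transcripts, 44.8% of those of H2-T23 also occur in transcripts of another gene, most often H2-Q1, Rab33b and H2-T-ps. The shares were 8.09% for H2-K1 and 7.98% for H2-D1, and 0 for B2m, Tap2, Psmb8 and Nlrc5. How the counting treated reads that fit several genes is not given in the sources used here, so the level of H2-T23 in particular is uncertain.

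The 200 bases before the RefSeq start of the light chain gene and of the heavy chain genes are shown so that their motif matches can be compared. The windows are placed by the RefSeq starts and are not aligned to one another, and a link to the levels below was not tested. The sequences are from RefSeq (GRCm38.p6), 5′ to 3′ on the strand of the gene, with motif matches in capitals.
H2-K1, chr17:34000348-34000547, minus strand: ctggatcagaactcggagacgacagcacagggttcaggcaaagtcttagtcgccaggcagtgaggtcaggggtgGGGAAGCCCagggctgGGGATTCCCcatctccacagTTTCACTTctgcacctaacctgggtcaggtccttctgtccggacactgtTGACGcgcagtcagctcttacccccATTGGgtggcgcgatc
H2-D1, chr17:35262894-35263093, plus strand: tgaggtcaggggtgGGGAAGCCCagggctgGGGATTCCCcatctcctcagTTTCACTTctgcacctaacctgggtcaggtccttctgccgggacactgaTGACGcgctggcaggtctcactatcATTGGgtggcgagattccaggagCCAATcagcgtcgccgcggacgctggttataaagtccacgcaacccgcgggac
B2m, chr2:122147487-122147686, plus strand: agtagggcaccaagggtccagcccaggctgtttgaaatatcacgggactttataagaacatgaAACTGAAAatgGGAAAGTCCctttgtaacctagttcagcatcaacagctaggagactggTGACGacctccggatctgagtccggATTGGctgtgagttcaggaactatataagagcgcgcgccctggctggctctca
H2-T23, chr17:36032702-36032901, minus strand: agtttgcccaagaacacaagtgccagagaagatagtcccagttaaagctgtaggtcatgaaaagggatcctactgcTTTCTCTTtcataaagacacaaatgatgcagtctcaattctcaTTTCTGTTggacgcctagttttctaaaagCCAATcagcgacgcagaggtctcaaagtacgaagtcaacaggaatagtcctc
H2-M2, chr17:37483555-37483754, minus strand: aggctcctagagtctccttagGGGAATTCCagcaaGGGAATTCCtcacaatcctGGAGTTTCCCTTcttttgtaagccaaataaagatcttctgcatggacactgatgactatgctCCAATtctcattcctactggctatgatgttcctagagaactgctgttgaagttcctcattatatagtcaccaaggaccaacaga

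The capitals mark 4 motifs searched on both strands, TTTCNNTT (the core of the interferon-response type), GGNNTTNCC (the kappaB type), TGACG (the core of a cAMP-response type element) and CCAAT. The same windows of 32851 promoter entries held them in 17.0%, 11.0%, 15.7% and 29.3%. H2-K1 and H2-D1 each had 2 kappaB matches followed by the interferon-response match TTTCACTT, then TGACG and then CCAAT on the opposite strand (ATTGG), to which H2-D1 added a CCAAT nearer the start, and B2m had matches to all 4 motifs with the interferon-response match first. H2-T23 had 2 interferon-response matches, TTTCTCTT and TTTCTGTT, and a CCAAT match, with no match to the other motifs in this window. H2-M2 had an interferon-response match, 3 kappaB matches, one of which overlaps it, and a CCAAT match. Of the other promoters, that of Tap1 held TGACG, that of Tapbp held CCAAT and that of Psmb8 held none of the 4. The motifs were chosen with the sequences in view, a match shows only that the letters are there, and the RefSeq starts of H2-D1 and H2-T23 lie 364 and 154 bases from their GENCODE starts. Those of Tapbp and Psmb8 lie further off, at 3579 and 474 bases. The windows of H2-D1, Tapbp and Psmb8 fall within the GENCODE genes, and that of H2-T23 does so in part.

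**Figure D1:**
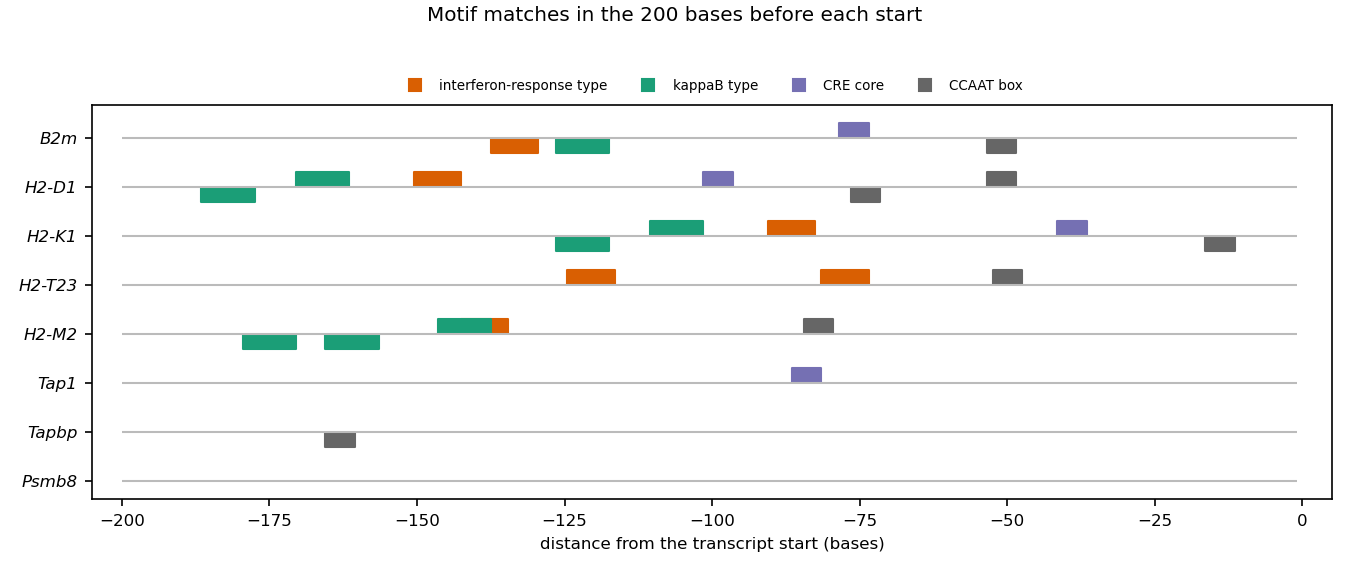
Positions of motif matches in the 200 bases before the start of 8 of the genes, with the distance from the start in bases on the horizontal axis. Boxes above a line are matches on the strand of the gene and boxes below it on the opposite strand. H2-K1 and H2-D1 share the order of their first 5 matches, with those of H2-K1 nearer the RefSeq start used, while H2-T23 has interferon-response type and CCAAT matches alone.

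Barcodes with 200 to 6000 genes were taken as cells, 15047 in all and 1133 to 4780 per matrix, with 962677 to 4471473 UMIs per matrix and a median of 527 to 694 UMIs per cell. A cell was put in a class by its UMIs of marker genes, none of them a member, and 8026 cells fell in the 7 classes used: 3363 tumor (tumor/alveolar epithelial), 726 hormone-sensing luminal, 86 myoepithelial, 923 fibroblast, 95 endothelial, 1590 macrophage and 1243 T/NK. The markers of the tumor class were PYMT, the oncogene, and Wfdc18, Cp, Csn3, Csn2, Lalba, Ltf, Plet1, Muc15, Folr1 and Trf. A cell could join that class without a UMI of PYMT. UMIs were summed per mouse and class and given per 1000000 UMIs of that sum (CPM). Sums of at least 10 cells were used, which left all 7 mice except for the myoepithelial class (5 mice) and the endothelial class (3 mice). Checks with other genes bore out the labels of most sums. Among the exceptions were the myoepithelial sums of replicates 3 and 7, with 131 and 302 CPM of a stromal list that reached 9812 to 12643 CPM in the other 3 sums used, and the hormone-sensing sum of replicate 7, with 24489 CPM of the tumor list against 1894 to 11434 CPM in the other mice. The tumor list also exceeded the hormone-sensing list in the hormone-sensing sums of replicates 1 (11434 against 7349 CPM) and 5 (6494 against 5809 CPM). The fibroblast sum of replicate 2 held 3911 CPM of an epithelial list against 145 to 807 CPM in the others. The myoepithelial sum of replicate 4 held 9277 CPM of the epithelial list beside its stromal signal, and that of replicate 5 held 5006 CPM. All 5 myoepithelial sums used held more of the tumor list, 9745 to 22979 CPM, than of their own list, 2816 to 6385 CPM. A stricter marker rule kept 16 of the 86 myoepithelial cells. The endothelial sum of replicate 8 held 14287 CPM of an erythroid list, above its own endothelial list (8512 CPM), against 329 and 0 CPM in the other endothelial sums used, and the fibroblast, T/NK and macrophage sums of that mouse held 6252, 4688 and 3971 CPM of it. A leukocyte list summed to 120 to 250 CPM in tumor cells, with none of its 10 genes at 0, and to 9188 to 13751 CPM in macrophages and T/NK cells. Pairs of matrices shared 4 to 10 cell barcodes. All levels are of mRNA in sums of cells, so fewer expressing cells and less RNA per cell are not told apart by a CPM value.

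B2m, the light chain shared by all class I molecules, had its lowest mean in tumor cells among the 5 classes measured in all 7 mice. In the 5 mice with a myoepithelial sum its means were 4036 CPM in tumor and 3915 CPM in myoepithelial cells. In tumor cells it ranged from 1834 through a median of 3296 to 5335 CPM. In hormone-sensing luminal cells, the other luminal type in these tumors, it ranged from 2997 through 4595 to 6721 CPM, and in fibroblasts from 3536 through 4382 to 6230 CPM. In macrophages it ranged from 7112 through 10187 to 11579 CPM and in T/NK cells from 6569 through 9037 to 11570 CPM, so these ranges lay wholly above that of tumor cells. The endothelial sums of replicates 4, 5 and 8 had 10117, 10933 and 5054 CPM, and the 5 myoepithelial sums from 1136 to 6003 CPM. In the order of means, macrophages, endothelial and T/NK cells stood first, and hormone-sensing cells were below T/NK cells in 7 of 7 mice. The last 4, hormone-sensing cells, fibroblasts, myoepithelial and tumor cells, overlapped one another.

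The classical heavy chain genes parted in how they ranked the classes. H2-D1 had 1034 through 1877 to 2856 CPM in tumor cells and 1220 through 1608 to 2086 CPM in fibroblasts, ranges that overlap. H2-K1 had 1334 through 1585 to 2608 CPM in tumor cells and 641 through 956 to 1104 CPM in fibroblasts, and the lowest tumor sum was above the highest fibroblast sum. In hormone-sensing cells H2-D1 ranged from 1717 through 2521 to 3542 CPM and H2-K1 from 1721 through 2631 to 3189 CPM. T/NK cells had the highest means of both genes among the 5 classes with all 7 mice, 3705 ± 756 CPM for H2-D1 and 3631 ± 629 CPM for H2-K1 (SD, n = 7). In macrophages H2-D1 averaged 3077 ± 527 CPM and H2-K1 1892 ± 341 CPM (SD, n = 7), the latter close to the 1913 ± 529 CPM of tumor cells. Endothelial cells averaged 3326 ± 982 CPM of H2-D1 and 2231 ± 237 CPM of H2-K1 (SD, n = 3).

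H2-T23, the gene of Qa-1, had its highest mean of the 5 classes with all 7 mice in tumor cells. Its tumor values were 422, 367, 300, 437, 376, 607 and 324 CPM in replicates 1, 2, 3, 4, 5, 7 and 8, a mean of 405 ± 102 CPM (SD, n = 7). Hormone-sensing cells had 322 ± 65.6 CPM and myoepithelial cells 329 ± 181 CPM, and both ranges overlapped that of tumor cells. Macrophages had 250 ± 81.6 CPM, T/NK cells 249 ± 93.9 CPM and fibroblasts 173 ± 63.1 CPM (SD, n = 7 each), and endothelial cells 235 ± 77.4 CPM (SD, n = 3). The highest fibroblast sum, 240 CPM, was below the lowest tumor sum. Among leukocyte classes that were not compared by test, dendritic-type cells (598 ± 158 CPM, SD, n = 4) and monocyte/granulocyte cells (494 ± 161 CPM, SD, n = 3) had higher means than tumor cells. Barcodes with fewer than 200 genes, which hold much free RNA, had less H2-T23 than the tumor cells of the same mouse in 7 of 7 mice (median 237 CPM), while for B2m they had more in 5 of 7 (median 3953 CPM).

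**Figure D2:**
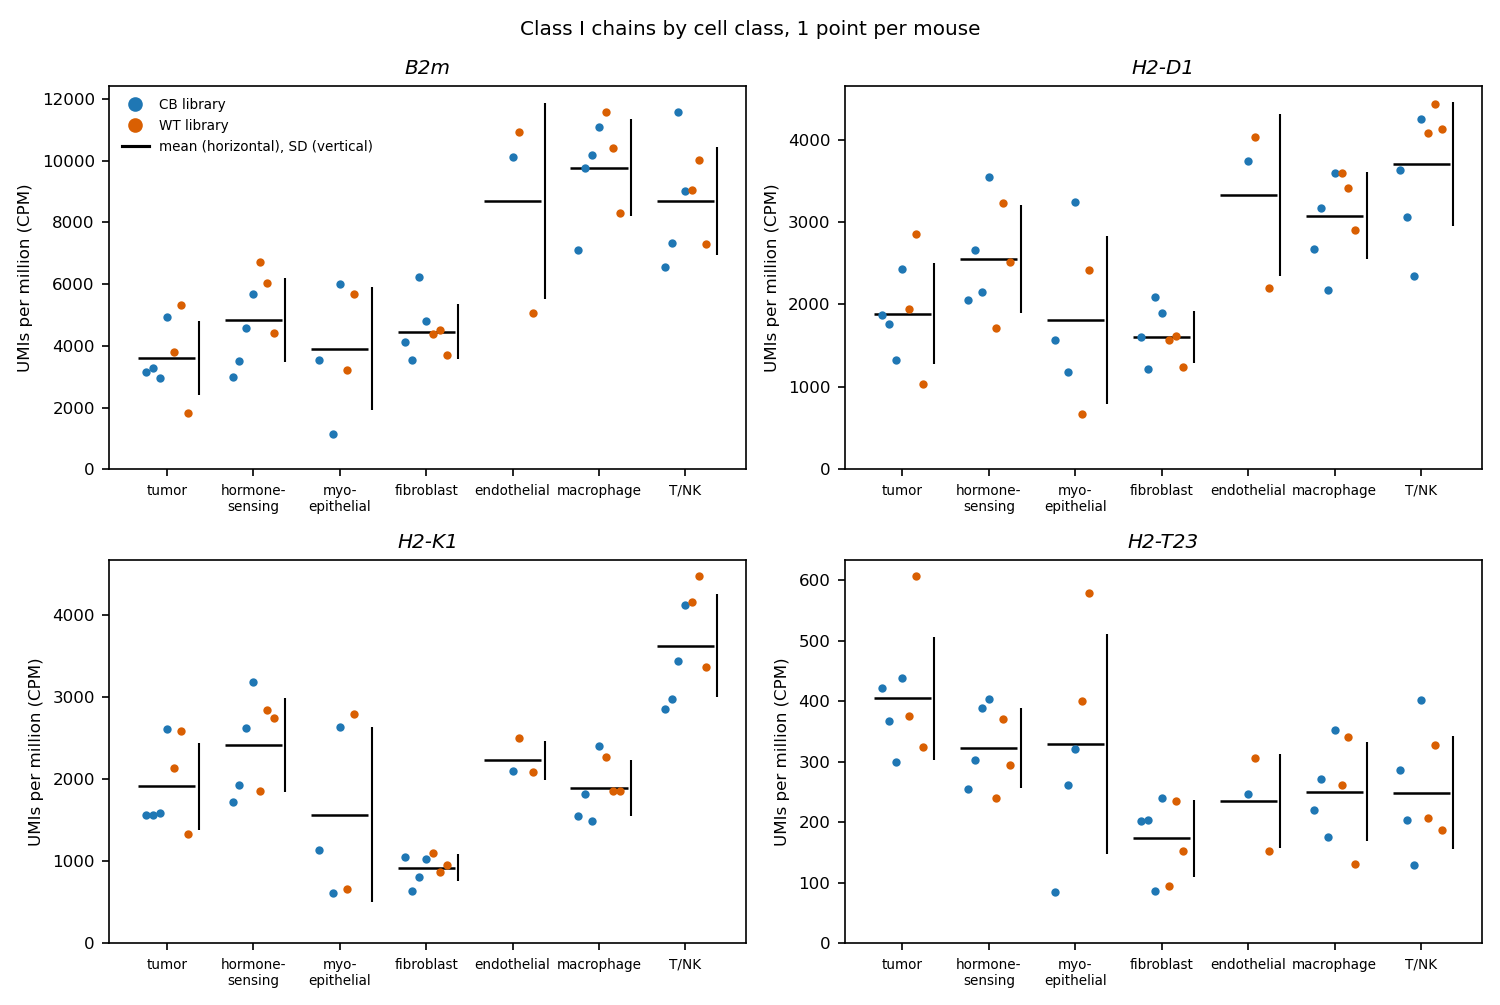
Levels of B2m, H2-D1, H2-K1 and H2-T23 in CPM by cell class, with 1 point per mouse colored by title series (CB or WT), horizontal lines for means and vertical lines for SDs. Of the 5 classes with all 7 mice, tumor cells have the lowest mean of B2m (3615 CPM) and the highest mean of H2-T23 (405 CPM), and all 7 tumor values of H2-K1 lie above the fibroblast values.

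The nonclassical gene H2-M2 was found in macrophages far more than in the other 6 classes. Macrophages had 208, 232, 260, 747, 587, 507 and 321 CPM in the order of replicates given above. Tumor cells had 12 UMIs of it among 4911008, hormone-sensing cells 5 and T/NK cells 4, and in myoepithelial and endothelial sums there was none, which allows up to 22.7 and 44.8 CPM over the group (3 UMIs). Dendritic-type cells, outside the 7 classes, had 1012 ± 894 CPM (SD, n = 4, 45 UMIs). After thinning every cell to 300 UMIs, 9.53% ± 3.68 of macrophages and 0.0904% ± 0.0908 of tumor cells had a UMI (SD over 7 mice).

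The genes of peptide supply followed yet another order. Psmb8 had 172 through 231 to 451 CPM in tumor cells and 439 through 688 to 954 CPM in hormone-sensing cells, and the ranges met in 1 pair of values, the highest tumor sum and the lowest luminal sum. Of the 5 classes with all 7 mice fibroblasts had the lowest mean, 168 ± 92.9 CPM, and T/NK cells the highest, 777 ± 376 CPM (SD, n = 7), below the 1387 ± 866 CPM of dendritic-type cells (SD, n = 4). Tap2 had 18.2 through 55.8 to 61.5 CPM in tumor cells and 32.7 through 99.9 to 184 CPM in hormone-sensing cells, the class with its highest mean. Tap1, the partner of Tap2, had means of 55.1 ± 25.6 CPM in tumor cells and 73.8 ± 18.8 CPM in hormone-sensing cells (SD, n = 7), with overlapping ranges. Of the 5 classes with all 7 mice, Tapbp had its lowest mean, 147 ± 46.8 CPM, in tumor cells, against 191 to 219 CPM in the others, while B/plasma cells had 128 ± 73.6 CPM (SD, n = 4). Nlrc5 was at the limit of detection, with 17 UMIs in all tumor sums, 15 each in macrophages and T/NK cells, and 1 in fibroblasts.

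**Figure D3:**
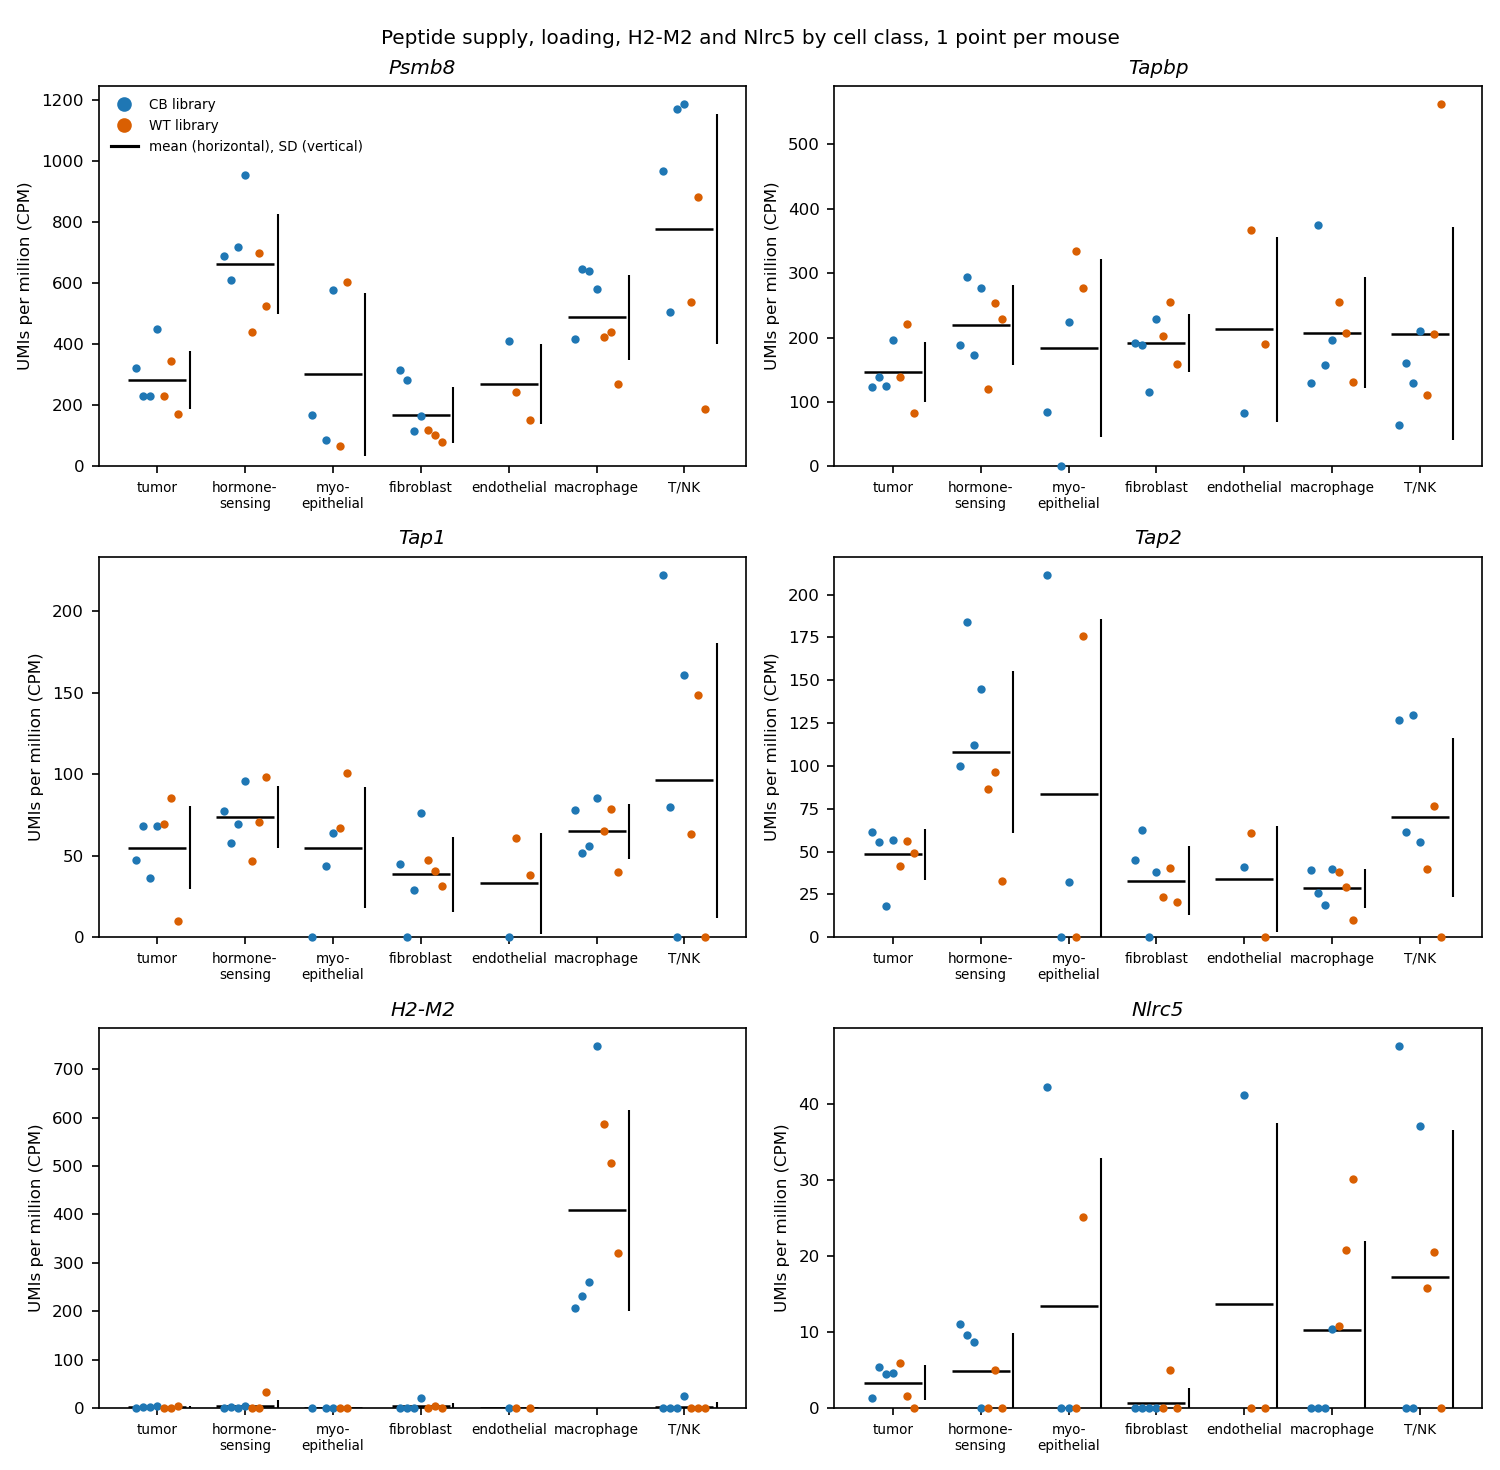
Levels of Psmb8, Tapbp, Tap1, Tap2, H2-M2 and Nlrc5 in CPM by cell class, with 1 point per mouse colored by title series, horizontal lines for means and vertical lines for SDs (drawn down to 0 at most). Hormone-sensing cells lie above tumor cells for Psmb8 in 7 of 7 mice and for Tap2 in 6 of 7, and H2-M2 is near 0 outside macrophages.

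The classes were then compared in pairs within mice, by edgeR's quasi-likelihood test on the summed counts with the mouse as block, and p-values were adjusted by Benjamini-Hochberg over all 5231 genes tested. Of the members, 9 passed the filter on low counts, while Nlrc5 did not, and H2-M2 passed only through its macrophage counts. H2-M2 stays among the 9 members in the comparisons with other classes, where it had 12 UMIs or fewer per class and was hardly open to a call. Fold changes are log2, tumor minus the other class, on the scale of TMM normalization. Against library totals alone, that scaling shifted the median fold change of all genes by 0.11 for hormone-sensing cells, 0.34 for myoepithelial cells, -0.10 for fibroblasts, 0.46 for endothelial cells, -0.21 for macrophages and 0.07 for T/NK cells, so a fold change can differ from the ratio of CPM means.

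Against hormone-sensing luminal cells, the other luminal class, tumor cells had less Psmb8, an immunoproteasome gene, and less Tap2, a peptide transporter gene. Psmb8 was lower by a log2 fold change of -1.10 (SE 0.21, adjusted p = 1.9e-05) in 7 of 7 mice, and Tap2 by -1.17 (SE 0.22, adjusted p = 2.1e-05) in 6 of 7. These were 2 of 9 members lower and 0 higher, where 13.2% of all genes were called lower and 15.3% higher. The median over the 9 members was -0.33, and over all genes 0.04. Without replicate 7, whose luminal sum held tumor markers, the fold changes were -1.17 for Psmb8 and -1.29 for Tap2, both still called. In the 3 WT mice alone neither was called, with -0.89 for Psmb8 (adjusted p = 0.11) and -0.51 for Tap2 (adjusted p = 0.68).

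The chains themselves were not called in that comparison. B2m, H2-D1 and H2-K1 were lower in tumor cells in 6 of 7 mice each, with log2 fold changes of -0.33 (95% interval -0.75 to 0.09), -0.35 (-0.74 to 0.05) and -0.24 (-0.66 to 0.17). H2-T23 went the other way, higher in 6 of 7 mice by 0.45 (0.10 to 0.80, adjusted p = 0.053). Tapbp differed by -0.42 (adjusted p = 0.11) and Tap1 by -0.12 (adjusted p = 0.77). Under the alternatives H2-T23 was called in 8 of 21, with fold changes from 0.16 to 0.80. B2m, H2-D1 and Tapbp passed the exact sign-flip test over mice (unadjusted p = 0.031, 0.047 and 0.047). H2-D1 was called without TMM (-0.45, adjusted p = 0.039) and with likelihood classes (-0.53, adjusted p = 0.029), as was Tapbp (-0.53 and -0.50, adjusted p = 0.034 each).

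Other genes of the route behaved in part like Psmb8 in that comparison. Of 44 further pathway genes, 35 were tested, 9 were lower and 5 higher in tumor cells, shares of the list to be read beside the 13.2% and 15.3% of all genes. Psmb9, another immunoproteasome subunit, differed by -1.50 (adjusted p = 5.0e-08), and the proteasome activator genes Psme1 and Psme2 by -0.53 and -1.18 (adjusted p = 0.026 and 3.1e-08), each lower in 7 of 7 mice without overlap. Psmb10, the remaining immunoproteasome subunit gene, differed by -0.34 (adjusted p = 0.21) and was not called. The constitutive subunit gene Psmb5 was lower too (-0.55, adjusted p = 0.024). The chaperones Hspa5 and Calr, which help fold many secreted proteins, were higher by 1.07 and 0.57 (adjusted p = 2.6e-05 and 0.027). Irf1, an interferon-induced activator of class I genes, differed by -0.71 (adjusted p = 0.024), and the kinase gene Jak2, which acts behind the interferon gamma receptor, by -1.70 (adjusted p = 0.00012), while the interferon receptor gene Ifnar2 was higher by 1.21 (adjusted p = 5.7e-05).

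Against myoepithelial cells, in 5 mice, 0 of 9 members were called, where 5.28% of all genes were called lower and 6.79% higher. Each of the 5 myoepithelial sums held more of the tumor list than of the myoepithelial list, so the class was not free of tumor markers. At an unadjusted p under 0.05 there were 2, and DESeq2 called 2, with no share of all genes at these settings to set beside them. The members nearest the threshold were H2-K1, with 0.72 (SE 0.26, adjusted p = 0.054), and H2-T23, with 0.75 (SE 0.27, adjusted p = 0.056). DESeq2's calls were the same H2-K1 and H2-T23. Without the sums of replicates 3 and 7, which the stromal check did not bear out, H2-T23 was called (1.15, adjusted p = 0.038), and without mouse 8, whose myoepithelial sum was too small to enter, H2-D1, H2-K1 and H2-T23 were (adjusted p = 0.042, 0.0066 and 0.015). Psme1, Pdia3 and Hspa5 of the further pathway genes were higher in tumor cells, and none was lower.

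Against fibroblasts, tumor cells had more of the heavy chains H2-K1 and H2-T23 and of Psmb8. H2-K1 was higher by 0.94 (SE 0.22, adjusted p = 0.00026) and H2-T23 by 1.09 (SE 0.20, adjusted p = 4.2e-06), each in 7 of 7 mice and with ranges that did not overlap. In the 3 WT mice alone H2-K1 was not called (0.83, adjusted p = 0.14). Psmb8 was higher by 0.75 (SE 0.24, adjusted p = 0.0082) in 6 of 7 mice, a call that was lost in CB mice alone (0.45, adjusted p = 0.27), without replicate 4 (0.51, adjusted p = 0.14) or 7 (0.55, adjusted p = 0.061) and without the mouse as block (adjusted p = 0.075). These 3 of 9 members were all higher, where 23.7% of all genes were called higher and 1201 of the 5231 lower. H2-D1 differed by 0.13 (95% interval -0.27 to 0.54), B2m by -0.42 (adjusted p = 0.10) and Tapbp by -0.49 (adjusted p = 0.051). Under the alternatives Tapbp was called lower in 11 of 21, B2m lower in 5 and Tap2 higher in 2. Without replicate 2, whose fibroblast sum held epithelial markers, the same 3 members were called.

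Of the 35 further pathway genes tested, 6 were higher and 11 lower in tumor cells than in fibroblasts, where 1242 and 1201 of all 5231 genes were. The nonclassical heavy chain genes H2-Q6 and H2-Q7, whose 3′ ends share sequence with each other, were higher by 1.19 and 1.55 (adjusted p = 0.00093 and 1.9e-05). H2-M3, another nonclassical heavy chain gene, and Fcgrt, the heavy chain of the neonatal Fc receptor, differed by -2.19 and -3.49 (adjusted p = 9.9e-07 and 7.4e-20). The interferon gamma receptor genes Ifngr1 and Ifngr2 differed by -2.15 and -1.14 (adjusted p = 1.1e-12 and 0.00047), with Ifnar1, Jak1 and Jak2 lower as well, 5 of the 6 tested genes of interferon reception.

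Against endothelial cells, in 3 mice, H2-T23 was the single member called, higher by 1.30 (SE 0.39, adjusted p = 0.011) in 3 of 3 mice, where 13.4% of all genes were called higher and 8.01% lower. The endothelial value rested on 6, 5 and 4 UMIs in replicates 4, 5 and 8, and the call was lost in 7 alternatives, among them without replicate 4 (1.15, adjusted p = 0.13), without TMM (0.81, adjusted p = 0.13) and without leukocyte-positive barcodes (0.97, adjusted p = 0.089), and not without replicate 8, whose sum held erythroid markers (1.33, adjusted p = 0.040). B2m was lower in 3 of 3 mice without overlap, by -0.71 (SE 0.29, adjusted p = 0.064), and by -0.64 without replicate 8 (adjusted p = 0.17). DESeq2 called it (-0.74, adjusted p = 0.033), and so did a fit of these 2 classes alone, which called H2-D1 too and not H2-T23 (0.85, adjusted p = 0.16). Of the further genes 8 were lower and 1 higher, and Ifngr2, Ifnar1, Ifnar2, Jak1 and Jak2 of interferon reception were among the lower ones.

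Against macrophages, tumor cells had less B2m, H2-D1, Psmb8 and Tapbp, and more H2-T23. B2m differed by -1.68 (SE 0.22, adjusted p = 1.7e-09), H2-D1 by -0.94 (adjusted p = 8.2e-05) and Psmb8 by -0.998 (adjusted p = 5.0e-05), each lower in 7 of 7 mice. Tapbp differed by -0.63 (adjusted p = 0.0065), a call lost in 7 of the alternatives, among them leaving out replicate 2 (-0.47, adjusted p = 0.072), keeping genes of low counts (-0.41, adjusted p = 0.30) and the exact sign-flip test over mice (p = 0.078). H2-M2 had entered the test only through its macrophage counts, so its difference was fixed by the filter and is given by its levels alone. Of the other 8 members tested these 4 were lower and 1 was higher, where 23.8% of all genes were called lower and 27.0% higher. Without the mouse as block, B2m, H2-D1 and Psmb8 were still called, while Tapbp and H2-T23 were not. The member that was higher was H2-T23, by 0.48 (SE 0.18, adjusted p = 0.022) in 7 of 7 mice, and that call was lost without replicate 1, 4 or 7 (adjusted p = 0.056, 0.058 and 0.056) and with classes drawn by profile likelihood (0.19, adjusted p = 0.43). H2-K1 differed by -0.20 (95% interval -0.61 to 0.21). All 4 immunoproteasome and activator genes beside Psmb8, namely Psmb9, Psmb10, Psme1 and Psme2, were lower in tumor cells, with log2 fold changes from -1.34 to -0.51, and 16 of the 35 pathway genes tested were lower against 1 higher.

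Against T/NK cells the light chain and both classical heavy chains were lower in tumor cells. B2m differed by -1.05 (SE 0.22, adjusted p = 4.0e-05), H2-D1 by -0.77 (adjusted p = 0.0012), H2-K1 by -0.73 (adjusted p = 0.0029) and Psmb8 by -1.30 (adjusted p = 5.8e-07), each lower in 7 of 7 mice. With genes of low counts kept, H2-K1 differed by -0.48 (adjusted p = 0.051), and in the 3 WT mice alone B2m, H2-D1 and H2-K1 were not called (adjusted p = 0.11, 0.16 and 0.23). Tap1 differed by -0.87 (adjusted p = 0.0036), while its CPM was lower in tumor cells in 4 of 7 mice and its exact sign-flip test over mice gave p = 0.88. These 5 of 9 members were lower, where 22.8% of all genes were called lower and 30.5% higher, and H2-T23 was again the 1 member higher, by 0.75 (SE 0.20, adjusted p = 0.0010) in 7 of 7 mice. With classes drawn by profile likelihood H2-T23 differed by 0.40 (adjusted p = 0.082). Nlrc5, when genes of low counts were kept in the test, was lower by -2.11 (adjusted p = 0.00046), from 17 UMIs against 15 in sums of 4911008 and 729100 UMIs, while it was lower in 4 and higher in 2 of 7 mice and its exact sign-flip test gave p = 0.16. H2-Q7 differed by -2.60 and Ifngr1 by -3.61, and 18 of the 35 tested pathway genes were lower against 9 higher.

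**Figure D4:**
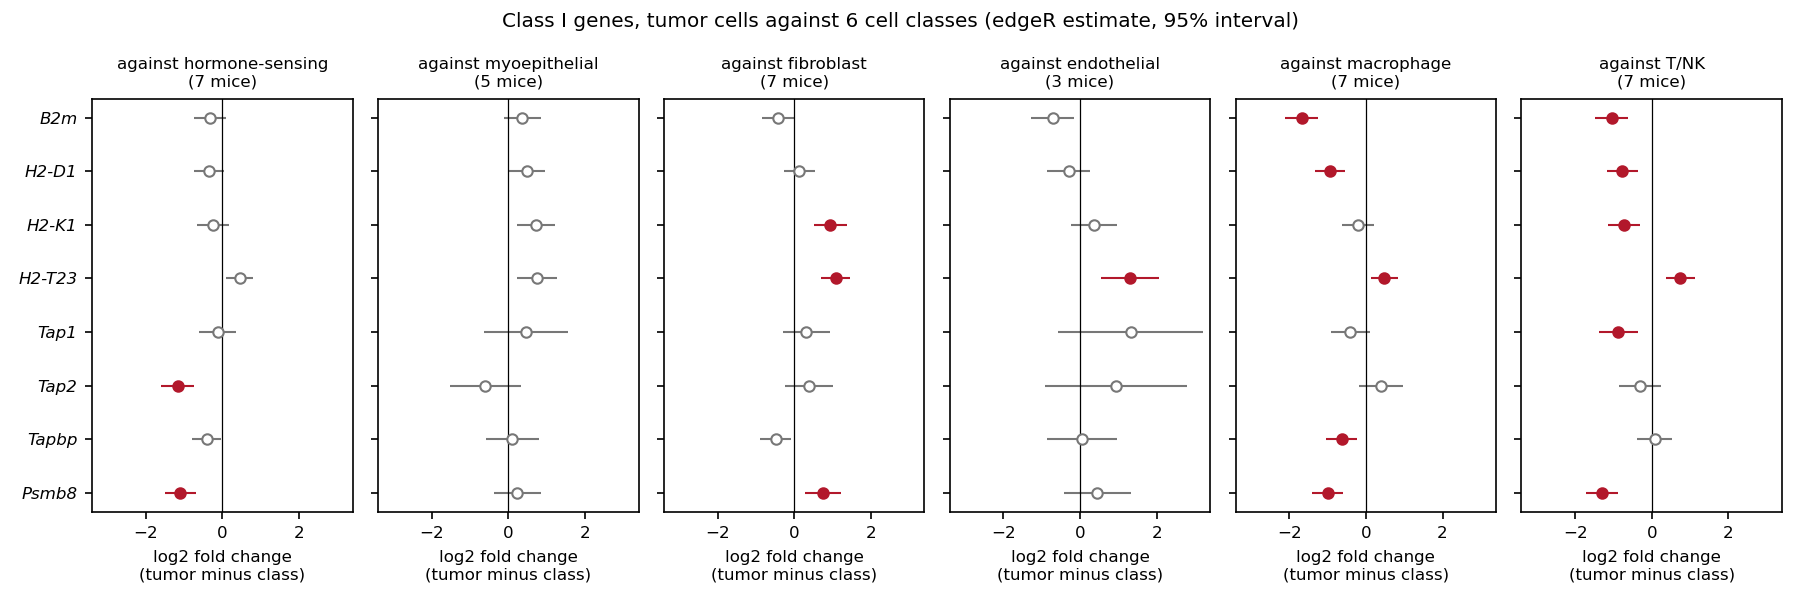
Log2 fold changes of 8 members, tumor cells minus each of 6 classes, with 95% intervals on the horizontal axis and filled points for an adjusted p under 0.05. H2-M2 and Nlrc5 are not drawn. B2m, H2-D1 and Psmb8 are filled and left of 0 against macrophages and T/NK cells, while each filled point of H2-T23 is right of 0.

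A ratio of members within the same sum does not depend on the scaling of that sum, and was compared between classes by an exact sign-flip test over 7 mice, two-sided, in a family of 11 tests that was chosen after the values were seen. For each UMI of H2-D1, tumor cells had 0.223 ± 0.0430 UMIs of H2-T23 (SD, n = 7), with 0.180 to 0.313 over mice. The ratio was 0.129 ± 0.0248 in hormone-sensing cells, 0.113 ± 0.0450 in fibroblasts, 0.0806 ± 0.0185 in macrophages and 0.0664 ± 0.0173 in T/NK cells (SD, n = 7 each). It was higher in tumor cells in 7 of 7 mice in each of these comparisons, by 0.78, 1.10, 1.49 and 1.77 on the log2 scale (SE 0.13, 0.29, 0.23 and 0.22), each with an exact p = 0.016, the smallest that 7 mice can give, and an adjusted p of 0.029. With other class rules, chosen after the values were seen, it was higher in 7 of 7 mice as well, by 0.69 to 0.85 against hormone-sensing cells, 1.01 to 1.16 against fibroblasts and 1.41 to 1.54 against macrophages. Against T/NK cells the difference was 1.60 to 1.91 in the 8 alternatives that gave a value, those leaving out a mouse included. Some of the sums held few UMIs of H2-T23, with 2 and 1 in T/NK replicates 3 and 8 and 3 in fibroblast replicate 3. The myoepithelial ratios ranged from 0.0541 to 0.600 and overlapped those of tumor cells.

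The ratio of H2-K1 to H2-D1 divided the classes differently. It was 1.04 ± 0.170 in tumor cells, 0.964 ± 0.175 in hormone-sensing cells and 1.01 ± 0.225 in T/NK cells, but 0.589 ± 0.128 in fibroblasts and 0.617 ± 0.0524 in macrophages (SD, n = 7 each). The tumor ratio was above that of fibroblasts and macrophages in 7 of 7 mice, by 0.84 and 0.74 on the log2 scale (SE 0.15 and 0.06, exact p = 0.016 and adjusted p = 0.029 each). Against hormone-sensing cells the difference was 0.12 (exact p = 0.094) and against T/NK cells 0.06 (exact p = 0.72). The ratio of Psmb8 to its constitutive counterpart Psmb5 was 2.72 ± 1.12 in tumor cells, 4.14 ± 1.34 in hormone-sensing cells, 1.69 ± 1.13 in fibroblasts and 5.89 ± 2.93 in macrophages (SD, n = 7 each). It was lower in tumor than in hormone-sensing cells in 6 of 7 mice (log2 difference -0.66, exact p = 0.047, adjusted p = 0.057) and than in macrophages in 6 of 7 (-1.03, exact p = 0.031, adjusted p = 0.043), and higher than in fibroblasts in 6 of 7 (0.79, exact p = 0.031, adjusted p = 0.043). For each of these 3 classes the unadjusted exact p was above 0.05 when any of 6 of the 7 mice was left out (0.0625 to 0.09375, where 6 mice can give 0.03125 at best). It was also above it against fibroblasts with likelihood classes (exact p = 0.094) and against hormone-sensing cells without leukocyte-positive barcodes (exact p = 0.078). The ratio rested on 4 to 28 UMIs of Psmb5 per fibroblast sum, 7 to 47 per macrophage sum and 5 to 141 per hormone-sensing sum.

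**Figure D5:**
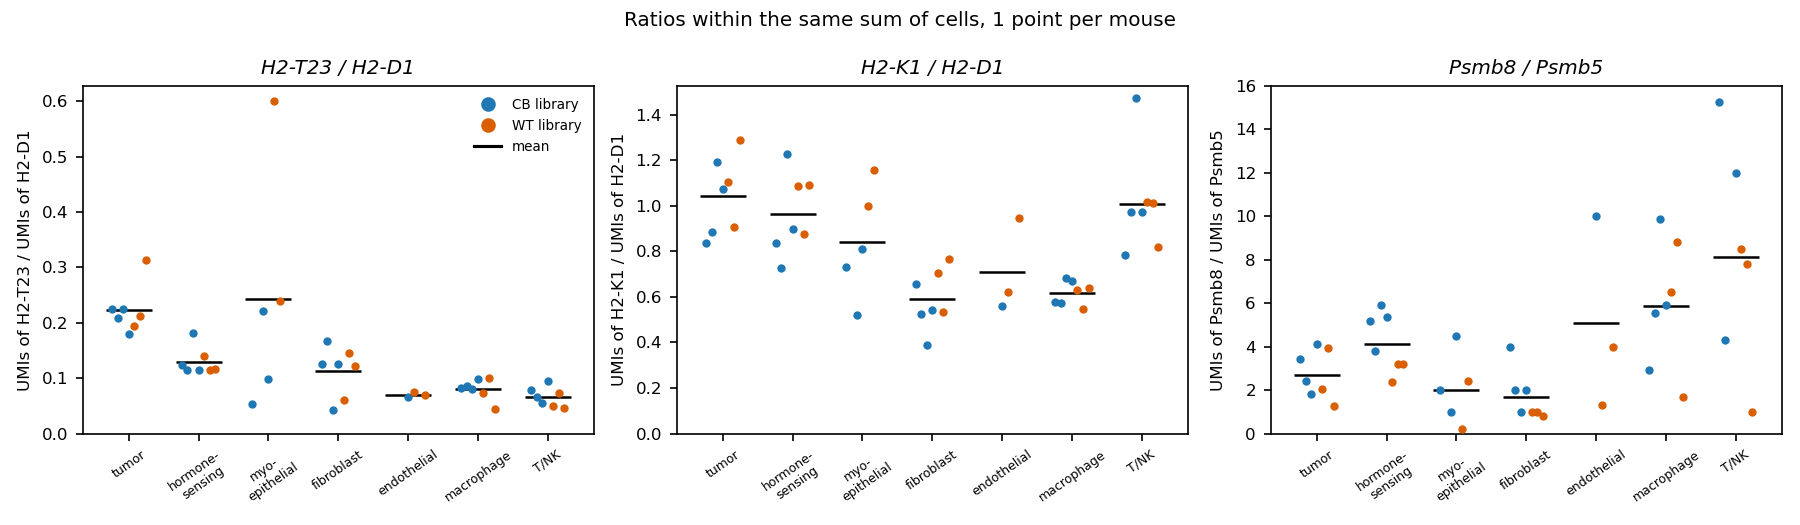
Ratios of UMIs of H2-T23 to H2-D1, of H2-K1 to H2-D1 and of Psmb8 to Psmb5 within each sum, with 1 point per mouse colored by title series and lines for means. The tumor points of the first ratio, 0.180 to 0.313, lie above all those of fibroblasts, macrophages and T/NK cells, and in the second the fibroblast and macrophage points lie low.

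Tumors differed among themselves. Between the lowest and the highest tumor, B2m differed 2.91-fold, H2-D1 2.76-fold, H2-K1 1.96-fold and H2-T23 2.02-fold, in the tumor class of 195 to 1100 cells. Replicate 8 was lowest for B2m, H2-D1, H2-K1, Tap1, Tapbp and Psmb8, and the highest value of each of these genes was in replicate 4 or 7. Without replicate 8, B2m ranged from 2955 to 5335 CPM and H2-D1 from 1329 to 2856 CPM. The tumor sum of replicate 8 also stood apart in other cells' markers, with 3309 CPM of an erythroid list (7 to 900 CPM in the others) and 804 CPM of the stromal list (57 to 194 CPM), and the least of the tumor list, and their part in its low levels was not tested. The libraries fall in 2 title series, CB (4 mice) and WT (3 mice), and the means in tumor cells were 3586 ± 921 and 3655 ± 1755 CPM for B2m and 1831 ± 518 and 2022 ± 636 CPM for H2-K1 (SD, n = 4 and 3), with overlapping ranges. The CB matrices held 287 to 501 barcodes ending in N and the WT matrices 0. In CB mice alone 2 members were called against hormone-sensing cells, 2 against fibroblasts, 4 against macrophages, H2-M2 not counted, and 6 against T/NK cells, where 23.6%, 33.8%, 38.0% and 40.4% of all genes were called in either direction. In the 3 WT mice alone the members called were 0, 2, 2 and 2, where 8.97%, 28.6%, 31.9% and 31.0% of all genes were called. These were H2-T23 and Psmb8 against fibroblasts, B2m and H2-D1 against macrophages, and Psmb8 and H2-T23 against T/NK cells.

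Single cells were compared after thinning each to 300 UMIs. B2m was then seen in 57.2% ± 12.2 of tumor cells, 69.2% ± 11.0 of hormone-sensing cells, 66.6% ± 5.96 of fibroblasts and 89.7% ± 3.94 of macrophages (SD, n = 7 each), after 171 of 3363, 19 of 726, 72 of 923 and 86 of 1590 cells with fewer UMIs were left out. Without thinning the shares were 79.4%, 92.9%, 87.3% and 95.7%, at medians of 837, 1511, 730 and 585.5 UMIs per cell. H2-T23 was seen in 11.9% ± 2.27 of thinned tumor cells, 8.45% ± 2.09 of hormone-sensing cells and 5.05% ± 1.70 of fibroblasts. Without thinning its shares were 33.4%, 40.6% and 14.1%, so the order of tumor and hormone-sensing cells, which differ in depth, was reversed. A thinned cell with no UMI of B2m, H2-K1 or H2-D1 made up 22.1% ± 10.1 of tumor cells (7.0 to 38.2% over mice) against 11.9% ± 6.18 of hormone-sensing and 21.6% ± 4.41 of fibroblast cells, shares that at this depth do not separate cells without the mRNA from cells in which it was missed. Ptprc, a leukocyte gene that epithelial cells lack, was seen in 0.263% ± 0.116 of thinned tumor cells and 14.2% ± 3.04 of thinned macrophages (SD, n = 7). Of the whole leukocyte list of 10 genes, at least 1 UMI was held by 13.4% to 18.4% of unthinned tumor cells per mouse. In macrophages that share was 96.15% to 99.4%. With every barcode holding a UMI of the leukocyte list left out, H2-T23 was still higher in tumor cells than in fibroblasts by 1.05 (adjusted p = 1.1e-05) and Psmb8 lower than in hormone-sensing cells by -1.10 (adjusted p = 2.2e-05), while H2-T23 was no longer called against endothelial cells (adjusted p = 0.089).

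Across all 43 sums, the 5 genes outside the pathway whose log2 levels were most like the mean of B2m, H2-K1 and H2-D1 were Taf6l (Pearson r = 0.75), Neurl3 (0.73), Cox7a2l (0.72), Cntrl (0.72) and Samsn1 (0.72), out of 3534 genes compared. Neurl3 averaged 524 ± 289 CPM in T/NK cells and 2.96 ± 2.71 CPM in tumor cells (SD, n = 7). Of the members themselves, Psmb8 had r = 0.73 with that mean, while Tapbp had 0.39, H2-M2 0.30, Tap1 and Tap2 0.27 each and H2-T23 0.16. The sums of 1 mouse share a library and differ widely in depth, so these are descriptions over 43 points that are not independent.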

How the data were processed

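Single cells of 7 control tumors were profiled by Drop-seq, and the authors deposited 1 matrix of UMI counts per tumor, raw and per gene and barcode. The study's methods name a mouse genome with the PyMT sequence, whereas the submitters' processing notes name STAR, FastQC and the human builds hg19 and GRCh37.p13. The counting of reads that fit several genes is not given in the sources used here. The tumors are 7 mice sequenced separately, so n is mice. The members and lists were chosen with earlier results of these data known, and the members are named in each comparison whatever their values.

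Barcodes with 200 to 6000 genes were kept, without mitochondrial genes, which 2 matrices alone list. No doublet caller was run. A setting without barcodes holding a leukocyte UMI was applied to the non-immune classes. It can remove mixtures with leukocytes but not mixtures of tumor cells with luminal, myoepithelial or stromal cells. A cell joined a class with at least 3 UMIs of at least 2 of its marker genes and a score at least 2 times that of the next class, and 6425 cells joined none. Counts were summed per mouse and class and tested in 1 fit of 43 sums by edgeR (4.0.16, R 4.3.3) with TMM, filterByExpr, the mouse as block, the quasi-likelihood test and Benjamini-Hochberg adjustment over 5231 genes at a threshold of 0.05. The mouse pairs the sums, since both come from 1 tumor. SEs were taken from the fold change and its F statistic, and 95% intervals are normal. Exact sign-flip tests used log2(CPM + 10). Alternatives were DESeq2 (1.42.0), other filters, class rules, title series and mice. The fit was also run on simulated counts, drawn from the same mean profile for all classes apart from genes changed in tumor. These had no differences between mice and are simpler than the real sums, and no result here rests on them. UMI shares and floors (3 UMIs over a group) cover counting error alone. Shares of cells after thinning are expected values. Sequence came from RefSeq tables and positions from GENCODE (GRCm38). The promoter table holds 8 of the 10 members. The members' other heavy chain, proteasome, loading, regulator and interferon genes made a list of 44, of which 35 were tested. Python 3.11.15, numpy 2.4.6, scipy 1.17.1 and pandas 2.3.3 were used.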

Additional observations from a re-analysis of the deposited data

Results flagged for a closer look

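In 59 groups of a member's levels over 5 or 7 mice, 5 had a highest value far from the others by Dixon's criterion. For normally distributed values chance gives about 1 such group in 20. That rate does not hold for counts near 0, where a single mouse with a UMI is always flagged. H2-M2 reached 32.7 CPM in the hormone-sensing cells of replicate 8, from 1 UMI, with the next mouse at 3.78 CPM. H2-M2 reached 21.8 CPM in the fibroblasts of replicate 4, with the next at 5.09 CPM, and 24.7 CPM in the T/NK cells of the same mouse, the tumor with the highest macrophage level (747 CPM), with all other mice at 0. Nlrc5 reached 5.09 CPM in the fibroblasts of replicate 7, from 1 UMI, with the other mice at 0. Tapbp reached 563 CPM in the T/NK cells of replicate 8, a sum of 10 cells and 5333 UMIs, with the next mouse at 210 CPM.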

How the results depend on the processing

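Of 1169 values of single members and ratios under an alternative, 71 passed the threshold newly and 59 no longer passed. The sign differed from the reported one in 56, of which 55 lay between values not called on either side and 1 was a called value. That was Tap1 against T/NK cells, 0.62 by the exact sign-flip test on log2(CPM + 1) (p = 0.58). Shares of all genes called are given above for the main fit and, in classes with all 7 mice, for CB or WT mice alone. The counts of members below under other settings have no such share beside them, so they cannot be set against all genes. Against hormone-sensing cells 2 members were called, 4 without TMM or with likelihood classes, 5 by sign-flip tests on log2(CPM + 10) or log2(CPM + 1), whose p-values are unadjusted, 0 in WT matrices alone, and 2 to 3 leaving out a mouse. Against fibroblasts 3 were called, 5 with the 2 classes alone, at least 500 genes, the stricter rule, likelihood classes and both sign-flip tests, and 3 to 4 leaving out a mouse. Against macrophages 5 were called, H2-M2 not counted, 2 in WT matrices alone and 4 to 5 leaving out a mouse, and against T/NK cells 6, 2 and 5 to 6. Against endothelial cells 1 was called, 2 with DESeq2, no TMM, no filter, the 2 classes alone, the stricter rule and likelihood classes (B2m and H2-D1 in place of H2-T23 without TMM and with the 2 classes alone), 0 at 30 cells per sum, without leukocyte-positive barcodes and in CB or WT matrices alone, and 0 to 2 leaving out a mouse (0 without mouse 4, 2 without mouse 2 or 7). Against myoepithelial cells 0 were called, 2 with DESeq2 and without leukocyte-positive barcodes, 4 without the filter, 1 in CB matrices alone, 1 without the sums of replicates 3 and 7 (chosen after seeing the data), and 0 to 3 leaving out a mouse (2 without mouse 2 or 3, 1 without mouse 7, 3 without mouse 8). The cause was not tested. Without the replicate block the counts were 2 (hormone-sensing), 0 (myoepithelial), 2 (fibroblasts), 1 (endothelial), 3 (macrophages) and 6 (T/NK). Myoepithelial sums gave no value at 30 cells or under the stricter rule. Sign-flip tests were not counted among the alternatives for myoepithelial (5 mice) and endothelial (3 mice) sums, where they cannot reach 0.05. Their smallest possible p-values there are 0.0625 and 0.25. Depth limits Nlrc5, with at most 17 UMIs in a class, and H2-M2 in the 6 compared classes other than macrophages, with at most 12.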

Other observations

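Some classes that were used only to keep cells out of the others held enough cells for values. Dendritic-type cells, which prime T cells, had 11278 ± 3832 CPM of B2m, 5114 ± 1646 CPM of H2-D1, 3128 ± 803 CPM of H2-K1 and 1387 ± 866 CPM of Psmb8 (SD, n = 4 mice, 48 cells). Their level of Nlrc5 was 117 ± 110 CPM, from 5 UMIs. Monocyte/granulocyte cells had 0 UMIs of H2-M2 in 72253, which allows up to 3 UMIs in that sum, and 7506 ± 1261 CPM of B2m (SD, n = 3 mice, 93 cells). B/plasma cells had 4673 ± 1320 CPM of B2m and 259 ± 51.5 CPM of H2-T23 (SD, n = 4 mice, 318 cells). No test was run on these classes.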
